A study of Mus musculus with 18 samples.

Results

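Genes induced by interferons were examined with the interferon-inducible subunits of the proteasome and the class I peptide-loading machinery in mice carrying a knock-in allele of Nup93. The set was a list of 46 genes, taken by name from a table of read counts for 24602 genes. It comprised 4 RNA sensors, 6 transcription factors, 17 antiviral effectors, 10 GTPases inducible by interferon-gamma, 4 genes of class I peptide loading, 3 immunoproteasome subunits and 2 chemokines. All 46 were rows of the table, and 45 had reads in every library. Tgtp1, an interferon-inducible GTPase, had 0 counts in all 18 libraries, which at 351716053 counts in all allows a level of up to 0.00853 CPM (a gene’s counts per mega-count of its library), a limit that covers counting error only. RNA-seq of 18 libraries from mice of strain 129S1/SvlmJ was deposited, 3 in each of 6 groups. The groups crossed 2 RNA fractions, nuclear and total, with 3 genotypes. The genotypes were Nup93 wild type, Nup93 R388W/+ and Nup93 R388W/R388W, written here as WT, Het and Hom, so that Nuclear_Het is nuclear RNA of the heterozygous genotype. Nup93 encodes a structural component of the nuclear pore. No treatment, age or sex was given, the labels named the material as mouse tissue and the series text as isolated podocytes, the filtering cells of the glomerulus. The WT groups were the only controls, and every group shared the strain.

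Type I interferons act through the receptor Ifnar1-Ifnar2 and interferon-gamma through Ifngr1-Ifngr2. Both use Janus kinases to activate Stat proteins, which then bind interferon-stimulated response elements (ISRE) or gamma-activated sites (GAS) in target promoters. Psmb8, Psmb9 and Psmb10 take the place of the constitutive catalytic subunits Psmb5, Psmb6 and Psmb7 in the immunoproteasome, whose peptides Tap1 and Tap2 carry into the endoplasmic reticulum for loading onto class I molecules. Leukocytes express many of these genes without stimulation, and kidney cells express several of them at a low level.

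Libraries held between 17405493 and 23462056 counts as used here. The Total_WT replicate 1 column held 10.2 times the mean of the other 17 libraries, and for 0 genes was it smaller than the 9 nuclear columns added together, so their sum was subtracted from it. Markers of podocytes summed to 257 to 470 CPM by group, against 30600 to 53300 CPM for proximal tubule markers. Xist, the RNA of the inactive X chromosome, measured 516 ± 26.4, 504 ± 11.8 and 346 ± 10.3 CPM (SD, n = 3 each) in Nuclear_Het, Nuclear_Hom and Total_WT, and 0.538, 0.624 and 1.25 CPM in Nuclear_WT, Total_Het and Total_Hom. Each comparison with WT, and nuclear against total RNA in each genotype, therefore cannot be told apart from sex. Hom against Het within a fraction compares groups that match in Xist. Between libraries of 1 group the mean chi-square per gene, with a value near 1 for sampling noise alone, was 1.37 to 2.57, except for Nuclear_Het replicate 3 (10.22 and 11.21) and Total_Hom replicate 2 (101.69 and 102.53). Counts of called members that rest on these 2 libraries are given with and without them. Counts of 2-fold changes, and of members whose libraries lay apart, are given only with them. The labels do not say whether replicates were separate animals. The p-values therefore cover no more than the spread among these replicates, and that may be technical.

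The letters of the 2 elements were looked for in the sequences upstream of the members. For 36 of the 46 members RefSeq gave promoters on build GRCm38.p6, and the 250 bases before each start were searched on both strands. The ISRE letters GAAANNGAAA were found upstream of 16 of the 36 members (44.4%), against 3.46% of 27025 genes, and in 2.98% of 32851 promoters. The GAS letters TTCNNNGAA were found in 11 of the 36 (30.6%), against 8.13% of genes and 7.02% of promoters. Both were found in 6 members (16.7%), against 0.4% of genes, and the matches do not overlap except in Bst2. The windows below are shown because 3 members of the Irg family of GTPases, and Tgtp2, a near copy of Tgtp1, carry the letters of both elements at 1 spacing. Capitals mark the matched letters, and each window has 20 bases on either side.
Igtp, chr11:58199491-58199551, plus strand: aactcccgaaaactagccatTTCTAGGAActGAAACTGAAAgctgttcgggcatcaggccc
Irgm2, chr11:58214882-58214942, plus strand: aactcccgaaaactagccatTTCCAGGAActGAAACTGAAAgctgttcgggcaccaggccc
Tgtp1, chr11:48992294-48992354, minus strand: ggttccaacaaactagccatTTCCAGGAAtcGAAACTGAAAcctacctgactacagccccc
Tgtp2, chr11:49064253-49064313, minus strand: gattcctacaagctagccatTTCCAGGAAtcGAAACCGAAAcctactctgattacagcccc
In each of the 4 the ISRE letters began 11 bases after the first base of the GAS letters. Of 32851 promoters 5 had this spacing, the fifth being that of the predicted gene Gm12185, and the spacing was chosen after the sequences were seen. Over 107 aligned upstream bases Tgtp1 and Tgtp2 were 91.6% identical. Tgtp2 had 107 to 365 counts per group while Tgtp1 had 0. How the counting treated reads shared by such copies is not given in the sources used here, so these 2 genes, and others of the Irg, Gbp, Oas and Ifit families, are uncertain where copies share reads.

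A further set shows members with ISRE letters alone or GAS letters alone, among them genes on which the results below turn.
B2m, chr2:122147528-122147577, plus strand: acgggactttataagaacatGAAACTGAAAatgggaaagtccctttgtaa
Isg15, chr4:156200855-156200916, minus strand: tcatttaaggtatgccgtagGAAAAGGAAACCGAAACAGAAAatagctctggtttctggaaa
Cxcl10, chr5:92349073-92349122, minus strand: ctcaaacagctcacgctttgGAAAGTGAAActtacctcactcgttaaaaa
Gbp3, chr3:142559979-142560034, plus strand: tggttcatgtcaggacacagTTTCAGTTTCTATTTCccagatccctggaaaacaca
Psmb8, chr17:34198078-34198126, plus strand: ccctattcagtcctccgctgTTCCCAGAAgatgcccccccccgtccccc
Irf1, chr11:53769904-53769952, plus strand: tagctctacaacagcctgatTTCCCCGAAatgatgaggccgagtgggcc
Irf8, chr8:120736167-120736233, plus strand: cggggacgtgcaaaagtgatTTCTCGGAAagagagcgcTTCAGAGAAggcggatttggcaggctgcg
Isg15 held 3 overlapping ISRE matches and Gbp3 held 2 on the opposite strand, while Psmb8 and Irf1 held 1 GAS match each and Irf8 held 2. A match is a description of letters, not a measured binding site.

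**Figure D1:**
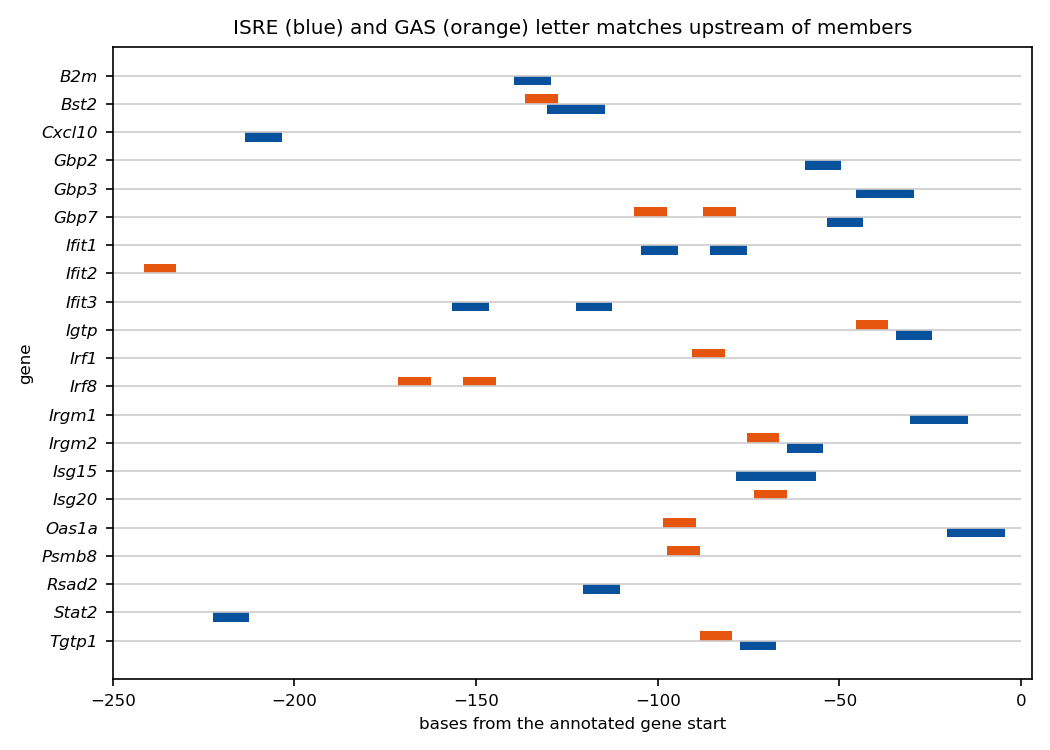
Positions of ISRE letter matches (blue, under each line) and GAS letter matches (orange, over each line) in the 250 bases before the annotated start, for the 21 members with at least 1 match. The x axis is distance from the start in bases, and Igtp, Irgm2 and Tgtp1 show the orange and blue boxes side by side.

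Levels of the 46 genes are given as CPM after TMM scaling of all 18 libraries. Per kilobase of gene length, B2m, the light chain of class I molecules, was highest with 485 CPM, followed by Tapbp with 45.6, Bst2 with 23.9 and Irgm1 with 18.5. The immunoproteasome subunits lay between 13.2 and 18.3 CPM per kilobase. Nlrc5 (0.445), Cxcl9 (0.454), Mx2 (0.586) and Zbp1 (0.595) were lowest among the 45 detected members. Of these 45, Nuclear_Het had the highest group mean for 32, Total_WT for 6, Total_Hom for 4, Total_Het for 2 and Nuclear_WT for 1, which was Samd9l. The lowest mean was in Nuclear_WT for 25 and in Nuclear_Hom for 13. Every Nuclear_Het library lay above all 15 other libraries for 28 of the 45 members, and 7.34% of the 15410 genes tested across all libraries did so. Every Nuclear_WT library lay below all others for 15 of 45, against 6.87% of genes. Ddx58 and Gbp3 were the 2 members that were higher in every library of the 3 Xist-high groups than in all others (2.73% of genes).

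**Figure D2:**
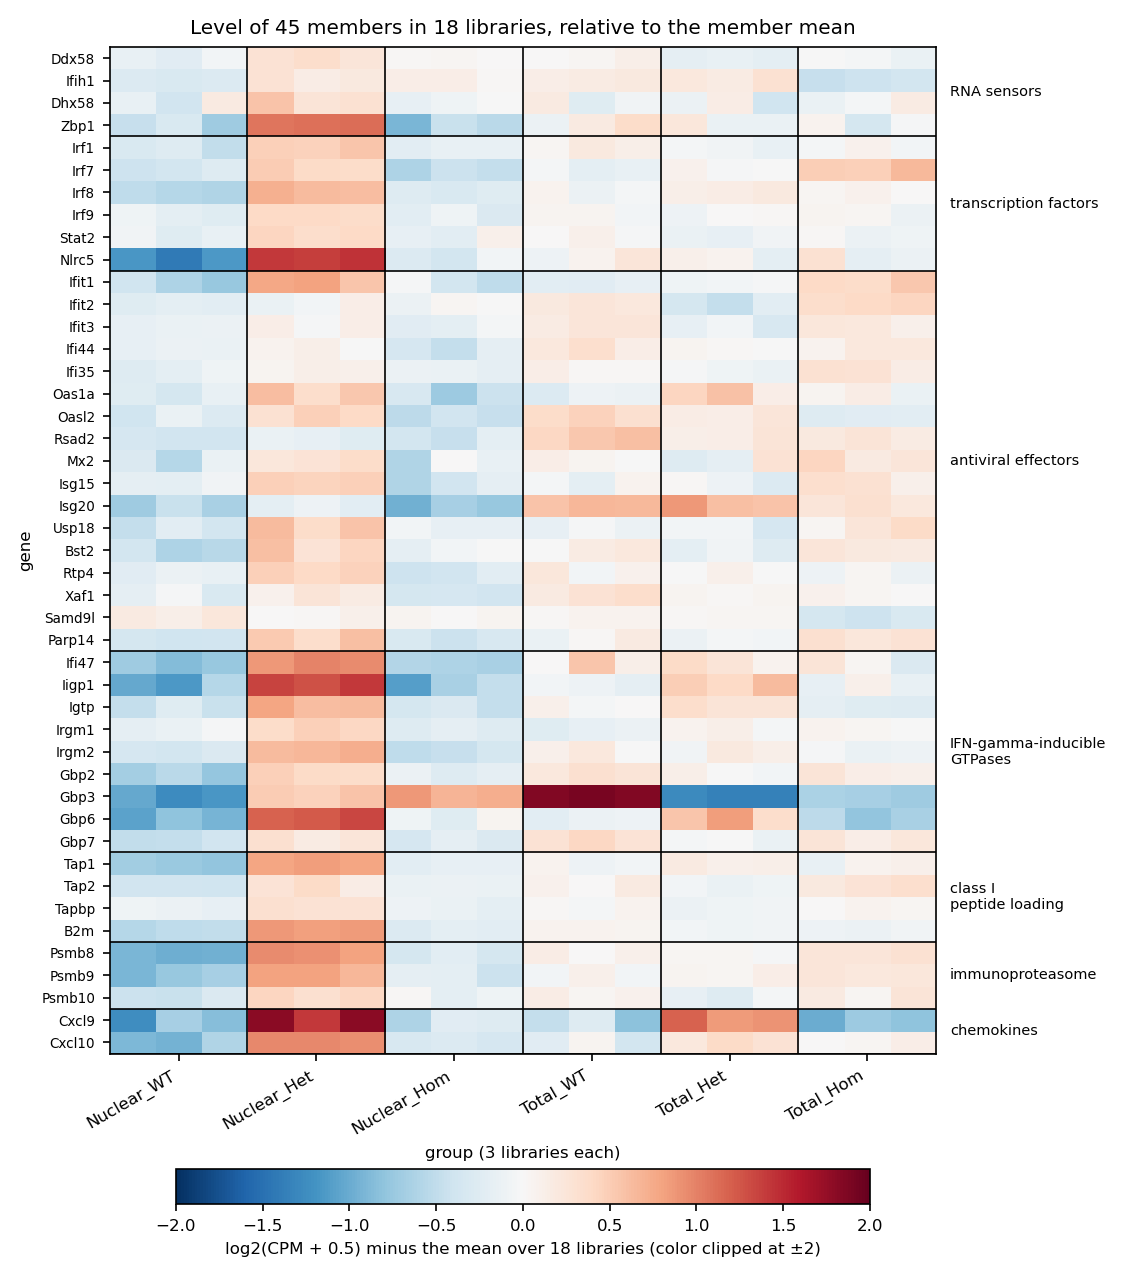
Level of the 45 detected members (rows, by role) in each of the 18 libraries (columns, 3 per group), as log2(CPM + 0.5) minus the member's mean over the 18 libraries, with red above and blue below that mean. Nuclear_Het is red for most rows and Nuclear_WT blue, Gbp3 is darkest in Total_WT, and Cxcl9 is also red in Total_Het.

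In nuclear RNA nearly the whole set was higher in Het than in WT. Of 45 members tested, 44 rose and 1 fell (edgeR quasi-likelihood test, Benjamini-Hochberg adjusted p under 0.05), while 32.8% of the 15112 genes tested rose and 31.7% fell. The median log2 change was 0.83 for the members and 0.02 for all genes tested. Of the members 17 rose at least 2-fold, against 9.34% of genes. The exception was Samd9l, which fell by 0.13 on the log2 scale and had the opposite sign when libraries were scaled by their totals alone. Without Nuclear_Het replicate 3, 43 rose and 1 fell. Summed over the members without B2m, the level was 746 ± 6.76 CPM in Nuclear_WT, 1170 ± 11 in Nuclear_Het and 821 ± 3.87 in Nuclear_Hom (SD, n = 3 each).

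Markers of leukocytes rose in the same comparison. The 3 pan-leukocyte markers (Ptprc, Laptm5 and Coro1a) all rose and summed to 27.9 to 30.5 CPM in the Nuclear_WT libraries, 122 to 127 in Nuclear_Het and 37.7 to 39.8 in Nuclear_Hom. Of 12 macrophage and myeloid markers 11 rose, and their sum ran from 173 to 184 CPM in Nuclear_WT, from 611 to 641 in Nuclear_Het and from 237 to 247 in Nuclear_Hom. T and NK markers summed to 2.02 to 3.46, 17.5 to 19 and 2.93 to 4.35 CPM in the same order, with 6 of the 7 tested higher in Het than in WT. All 6 B and plasma cell markers, all 5 dendritic markers and the 3 neutrophil markers tested also rose. No marker of these lists was at 0 in a whole group. The ratio of Nuclear_Het to Nuclear_WT was 4.25 for the pan-leukocyte sum, 3.53 for the myeloid sum and 6.51 for the T and NK sum, against 1.57 for the members without B2m and 2.62 for the immunoproteasome. Markers of kidney cells moved too. Of 9 podocyte markers 8 rose, from 325 ± 7.13 to 430 ± 2.44 CPM in sum, and of 10 proximal tubule markers 7 fell and 1 rose, from 47700 ± 624 to 30600 ± 484 CPM (SD, n = 3 each). The proximal tubule sum depends strongly on Kap, which alone ran from 13930 to 15050 CPM in Nuclear_WT and from 1591 to 1629 in Nuclear_Het. Distal nephron markers summed to 8190 ± 44.5 and 9980 ± 148 CPM (3 rose and 3 fell), and endothelial markers to 910 ± 5.51 and 921 ± 9.12 CPM (4 rose and 2 fell). The part of leukocytes and of these other cell types in the members' change was not tested, and in bulk RNA fewer cells of a type and less RNA per cell cannot be told apart.

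**Figure D3:**
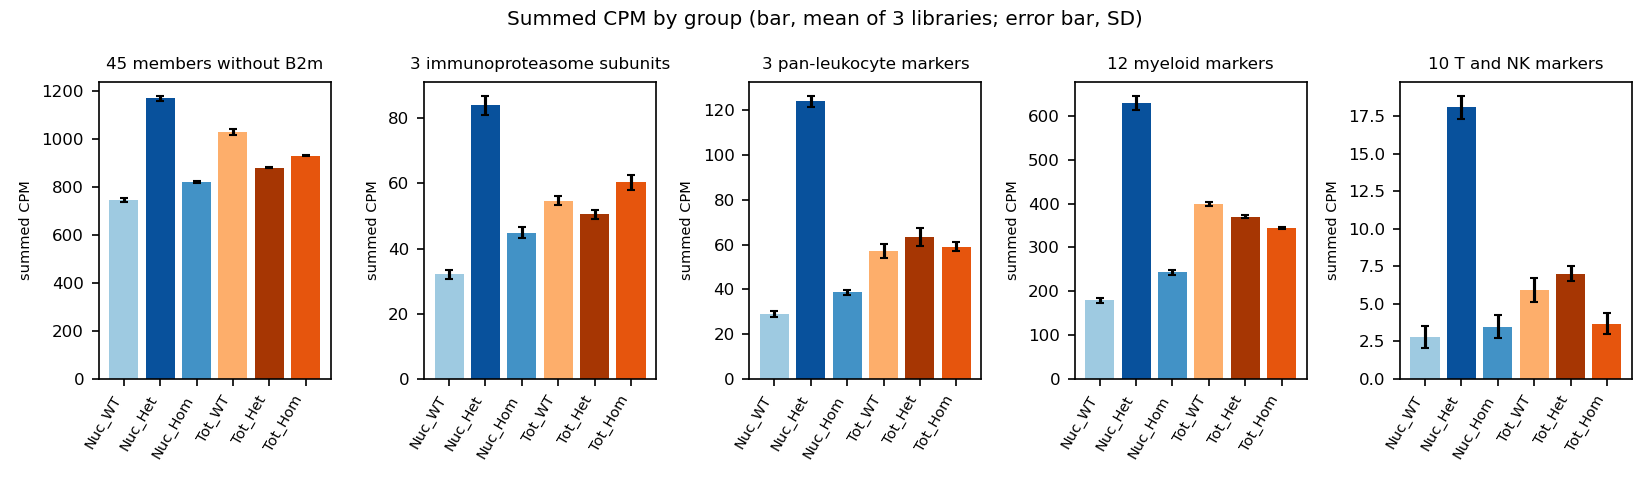
Summed CPM in each group (bars, mean of 3 libraries; error bars, SD; Nuc_ is nuclear and Tot_ is total RNA) for the members without B2m, the 3 immunoproteasome subunits, and the pan-leukocyte, myeloid, and T and NK markers. Nuclear_Het is the tallest bar in all 5 panels and Nuclear_WT the shortest.

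The immunoproteasome subunits rose together, and all 3 were called. Psmb8, which replaces Psmb5, measured 10.7, 10.3 and 10.4 CPM in Nuclear_WT, 40.4, 39.6 and 36.7 in Nuclear_Het, and 16.2, 17.9 and 16.1 in Nuclear_Hom. Every Nuclear_Het library lay above every other, and the Het level was 3.73-fold that of WT (log2 1.90 ± 0.07 SE, adjusted p = 1.65e-42 by edgeR). Psmb9, which replaces Psmb6, measured 5.1, 5.73 and 6.21 CPM in Nuclear_WT, 17.9, 18 and 16.2 in Nuclear_Het, and 8.89, 8.7 and 7.36 in Nuclear_Hom. Psmb10, the counterpart of Psmb7, measured 15.4, 15.3 and 17.2 CPM in Nuclear_WT, 28.5, 26.5 and 28.2 in Nuclear_Het, and 21.4, 18.2 and 19.7 in Nuclear_Hom. Nuclear_Het again lay above both other groups for these 2 subunits, by log2 1.63 ± 0.10 and 0.80 ± 0.07 over WT. Of the constitutive partners, Psmb7 and Psmb5 fell by 0.41 each on the log2 scale, to 130 and 47.2 CPM in Nuclear_Het, and Psmb6 did not pass the test (log2 -0.04).

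In class I peptide loading all 4 members rose. B2m measured 266, 279 and 283 CPM in Nuclear_WT, 724, 705 and 716 in Nuclear_Het, and 328, 347 and 345 in Nuclear_Hom, a 2.60-fold difference between Het and WT (log2 1.38 ± 0.03, edgeR adjusted p = 1.9e-65). Tap1, 1 chain of the peptide transporter, measured 10.8, 10.5 and 10.1 CPM in Nuclear_WT, 31.3, 32.2 and 31.1 in Nuclear_Het, and 15.4, 15.8 and 15.8 in Nuclear_Hom. It rose by log2 1.59 ± 0.07, and its partner Tap2 by 0.67 ± 0.05. Tapbp, or tapasin, which bridges the transporter and class I molecules, measured 118, 115 and 111 CPM in Nuclear_WT, 156, 153 and 153 in Nuclear_Het, and 116, 114 and 109 in Nuclear_Hom. It had the smallest change of the 4, log2 0.43 ± 0.03, with no overlap between Nuclear_Het and either other group.

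All 6 transcription factors rose. Nlrc5, the transactivator of class I genes, had the second largest change of all members and measured 0.866, 0.655 and 0.879 CPM in Nuclear_WT, 7.72, 7.51 and 7.86 in Nuclear_Het, and 2.04, 1.88 and 2.45 in Nuclear_Hom. Its Het level was 9.53-fold that of WT (log2 3.25 ± 0.18, edgeR adjusted p = 6.26e-29). Irf1, which binds ISRE, measured 22.4, 23.4 and 19.7 CPM in Nuclear_WT, 39.2, 38.5 and 41.2 in Nuclear_Het, and 24.1, 25.1 and 25.1 in Nuclear_Hom. Stat2, which acts together with Irf9 in the ISGF3 complex, measured 23.7, 21.1 and 22.6 CPM in Nuclear_WT, 33.8, 32.1 and 32.9 in Nuclear_Het, and 22.2, 21.4 and 26.9 in Nuclear_Hom. Irf1, Stat2 and Irf9 rose by log2 0.86 ± 0.06, 0.55 ± 0.06 and 0.57 ± 0.07. Irf8, also a lineage factor of myeloid cells, rose by 1.24 ± 0.06, and Irf7, which amplifies type I interferon production, by 0.80 ± 0.08.

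Among the RNA sensors all 4 rose. Ddx58 (RIG-I) measured 30.7, 28.9 and 32.8 CPM in Nuclear_WT, 41.5, 43.5 and 40.1 in Nuclear_Het, and 34.5, 35 and 34.2 in Nuclear_Hom. Ifih1 (MDA5) measured 16, 15.7 and 16.1 CPM in Nuclear_WT, 24.1, 21.7 and 22.6 in Nuclear_Het, and 21.4, 21.4 and 19.8 in Nuclear_Hom. Their Het to WT changes were modest, log2 0.44 ± 0.05 and 0.52 ± 0.07. Zbp1, a sensor of left-handed nucleic acids, was scarce and measured 0.683, 0.819 and 0.494 CPM in Nuclear_WT, 2.94, 3.0 and 3.05 in Nuclear_Het, and 0.37, 0.70 and 0.627 in Nuclear_Hom. It changed most of the 4, by log2 2.16 ± 0.25 (edgeR adjusted p = 2.58e-12). Dhx58, which tunes signalling by the other sensors, rose by 0.56 ± 0.16.

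The interferon-gamma-inducible GTPases, which attack vacuoles of intracellular pathogens, held 9 tested members, and all 9 rose, with a median of 1.13 on the log2 scale. Iigp1 measured 3.6, 3.27 and 5.11 CPM in Nuclear_WT, 20.8, 19.7 and 21.8 in Nuclear_Het, and 3.38, 4.81 and 5.48 in Nuclear_Hom. Gbp6 measured 1.59, 2.02 and 1.81 CPM in Nuclear_WT, 9.47, 9.9 and 10.7 in Nuclear_Het, and 3.66, 3.24 and 4.07 in Nuclear_Hom. Ifi47 measured 2.55, 2.24 and 2.47 CPM in Nuclear_WT, 8.62, 9.49 and 9.2 in Nuclear_Het, and 2.83, 2.75 and 2.72 in Nuclear_Hom. For these 3 the Het level was 5.23-fold, 5.56-fold and 3.74-fold that of WT, and no Nuclear_Het library overlapped either other group. Iigp1 and Gbp6 had log2 changes of 2.39 ± 0.11 and 2.48 ± 0.14 (edgeR adjusted p = 7.65e-29 and 2.34e-28). Irgm1, a regulator of this family and its most abundant member, measured 36, 37.2 and 40.3 CPM in Nuclear_WT, 52.5, 57 and 54.7 in Nuclear_Het, and 34.1, 36 and 33.9 in Nuclear_Hom, a rise of log2 0.54 ± 0.05. Gbp3 measured 13.1, 11 and 11.9 CPM in Nuclear_WT, 38.7, 37.4 and 40.6 in Nuclear_Het, and 49.8, 43.8 and 45.1 in Nuclear_Hom. Gbp3 rose by log2 1.69 ± 0.07 in Het, and its Hom libraries all lay above the Het libraries.

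Of the 17 antiviral effectors 16 rose, with a median of 0.66. Ifit1, which binds viral RNA caps, had the largest change, log2 1.37 ± 0.11, and measured 5.69, 4.8 and 4.34 CPM in Nuclear_WT, 13.4, 13.7 and 11.4 in Nuclear_Het, and 7.5, 5.82 and 5.22 in Nuclear_Hom. Usp18, which removes Isg15 from proteins, rose by 0.98 ± 0.13, and Bst2, which tethers budding virions, by 0.97 ± 0.08. Parp14, an ADP-ribosyltransferase, rose by 0.89 ± 0.06, Oas1a, an oligoadenylate synthetase, by 0.85 ± 0.16, and the ubiquitin-like Isg15 by 0.68 ± 0.13. The changes were smallest for Rsad2 (viperin), Ifit2, Ifi44 and Ifit3, at 0.20, 0.21, 0.21 and 0.23. The Ifi44 call was lost with DESeq2 and without Nuclear_Het replicate 2, and the Ifit2 call without Nuclear_Het replicate 3. Ifit3, which binds Ifit1, measured 30.5, 31.2 and 31.8 CPM in Nuclear_WT, 37.9, 33.9 and 38 in Nuclear_Het, and 29.4, 30 and 33.4 in Nuclear_Hom. Samd9l, an inhibitor of viral translation with the highest CPM of the effectors (not per length), measured 109.5, 105 and 114 CPM in Nuclear_WT, 97, 98.5 and 104 in Nuclear_Het, and 100.2, 97.8 and 100.5 in Nuclear_Hom. Its Nuclear_WT libraries were the highest of the 9.

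Both chemokines, which attract T and NK cells through Cxcr3, rose. Cxcl9 had the largest change of all members, 16.4-fold (log2 4.03 ± 0.30, edgeR adjusted p = 1.67e-21), and measured 0.0911, 0.382 and 0.275 CPM in Nuclear_WT, 4.4, 3.25 and 4.38 in Nuclear_Het, and 0.417, 0.70 and 0.679 in Nuclear_Hom. Cxcl10 rose 4.10-fold (log2 2.03 ± 0.16) and measured 1.59, 1.53 and 2.09 CPM in Nuclear_WT, 7.1, 7.16 and 7.0 in Nuclear_Het, and 2.64, 2.75 and 2.61 in Nuclear_Hom. For both, Nuclear_Het stood clear of the other groups.

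**Figure D4:**
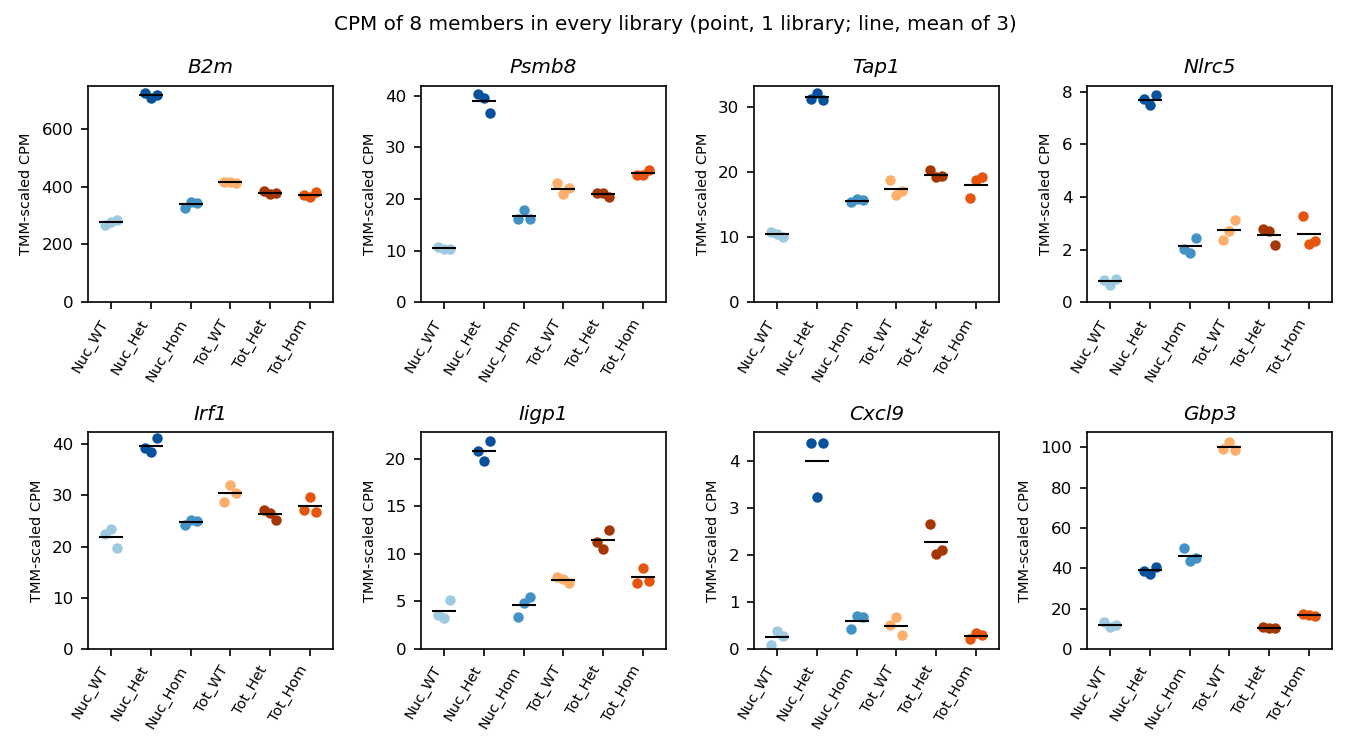
CPM of 8 members in every library (points, with a line at the mean of 3; Nuc_ is nuclear and Tot_ is total RNA) on linear axes from 0. B2m, Psmb8, Tap1, Nlrc5, Irf1, Iigp1 and Cxcl9 peak in Nuclear_Het, whereas Gbp3 peaks in Total_WT between 98.7 and 103 CPM.

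The comparison of the 2 mutant genotypes in nuclear RNA has groups matched in Xist. Hom was lower than Het for 41 of 45 members and higher for 1, Gbp3, against 21.8% and 21.4% of all genes, with medians of -0.72 for the members and 0 for all genes. At least 2-fold falls were called for 15 members and 4.84% of genes. Without Nuclear_Het replicate 3, 40 fell and 1 rose. Cxcl9 fell by 2.74 ± 0.24 on the log2 scale, Zbp1 by 2.39 ± 0.26, Iigp1 by 2.19 ± 0.11, Nlrc5 by 1.87 ± 0.15 and Ifi47 by 1.71 ± 0.13 (edgeR adjusted p = 3.66e-17, 1.76e-13, 1.8e-27, 6.14e-20 and 7.13e-21). All 3 immunoproteasome subunits, all 4 class I loading genes, all 6 transcription factors and both chemokines fell, with 15 of 17 effectors, 8 of 9 GTPases and 3 of 4 sensors. Ifih1, Ifit2 and Samd9l were not called. The leukocyte sums fell as well, Nuclear_Het standing at 3.21 times Nuclear_Hom for the pan-leukocyte and 2.59 times for the myeloid markers, against 1.43 for the members without B2m. Of the podocyte markers 7 of 9 fell (430 to 357 CPM in sum), and of the proximal tubule markers 9 of 10 rose (30600 to 32100 CPM). The part of these cell types in the difference was not tested. Nuclear Het against WT uses the same Het libraries, so the 2 comparisons are not independent.

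Against WT, nuclear RNA of Hom showed a smaller and partial change. Of 45 members 20 rose and 4 fell, beside 26.5% and 27.8% of genes, with medians of 0.17 and 0.02. Rises of at least 2-fold were called for 4 members and 4.62% of genes. Gbp3 rose 3.83-fold (log2 1.94 ± 0.06), Nlrc5 by log2 1.39 ± 0.24, Cxcl9 by 1.30 ± 0.46, Gbp6 by 1.02 ± 0.17 and Psmb8 by 0.68 ± 0.08 (edgeR adjusted p = 2.23e-45, 6.05e-07, 0.0125, 5e-07 and 3.01e-12). The Cxcl9 call rests on few counts and was lost without Nuclear_WT replicate 1 (log2 0.85, adjusted p = 0.138) or Nuclear_Hom replicate 2 (1.15, adjusted p = 0.0569). All 3 immunoproteasome subunits rose, as did B2m, Tap1 and Tap2 of peptide loading and both chemokines, but only 3 of 17 effectors (Ifit1, Ifit2 and Bst2). The Ifit1 call was lost with DESeq2, without Nuclear_WT replicate 2 or 3, and without Nuclear_Hom replicate 1. Ifi44, Xaf1, Samd9l and Irgm1 fell, by 0.12 to 0.20 on the log2 scale, and scaling by library totals removed these 4 calls and turned the sign of Irgm1. The count of members that fell was also 1 without Nuclear_WT replicate 2, 2 without Nuclear_WT replicate 3 and 2 without Nuclear_Hom replicate 3. In this comparison the ratio of Hom to WT was 1.33 for the pan-leukocyte and 1.36 for the myeloid sum, 1.40 for the immunoproteasome and 1.1 for the members without B2m. The same ratio was 1.26 for T and NK, 1.28 for neutrophil, 0.941 for dendritic, and 4.14 for B and plasma markers. For kidney cells it was 0.674 for proximal tubule, 1.23 for distal nephron, 1.1 for podocyte and 1.09 for endothelial markers. The proximal tubule ratio depends strongly on Kap, at 13930 to 15050 CPM in Nuclear_WT and 1837 to 2019 in Nuclear_Hom. The median log2 change of the proximal tubule markers was -0.12. The part of these cell types in the members' change was not tested.

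Of the ligands, 0 counts of Ifng were found in Nuclear_WT and Total_WT, 10 in Nuclear_Het, 3 in Nuclear_Hom, 6 in Total_Het and 3 in Total_Hom, each over 3 libraries. Ifnb1 had at most 1 count in any group. The receptor chains were expressed in every group, Ifnar1 at 62 to 74 CPM, Ifnar2 at 31.8 to 44.5, Ifngr1 at 29.5 to 53.2 and Ifngr2 at 34 to 45.6. Of 30 genes listed as ligands, receptors and signalling, 22 were tested in nuclear RNA. Of these 14 rose and 3 fell in Het against WT, beside 32.8% and 31.7% of all genes. Socs3, the feedback inhibitor of cytokine receptors, rose by log2 2.36 ± 0.13 from 2.58 to 13.3 CPM, Tmem173 (STING) by 1.59 ± 0.11 and Stat3 by 0.64 ± 0.04. In Hom against Het 17 of the 22 fell, among them Socs3 by 1.58 ± 0.11, and 0 rose (21.8% and 21.4% of all genes).

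Further interferon-induced genes outside the 46 moved in the same direction in nuclear Het against WT and in nuclear Hom against Het. Of 45 tested, 39 rose and 0 fell in Nuclear_Het against Nuclear_WT, beside 32.8% and 31.7% of all genes. In Hom against Het 0 rose and 40 fell, beside 21.4% and 21.8% of all genes. Lgals3bp, a secreted glycoprotein, rose by log2 1.13 ± 0.04 to 121 CPM, Ifi27l2a by 2.35 ± 0.09 to 27.7, and the restriction factors Ifitm1 and Ifitm3 by 1.87 ± 0.08 and 0.87 ± 0.05. In nuclear Hom against WT 13 rose, 5 fell and 27 were not called, beside 26.5% and 27.8% of all genes that rose and fell. The rises were thus about as frequent as over all genes, and were led by Ifi27l2a with 1.43 ± 0.09. Tgtp2 averaged 1.95 ± 0.36 CPM in Nuclear_WT, 6.12 ± 0.782 in Nuclear_Het and 2.30 ± 0.711 in Nuclear_Hom (SD, n = 3 each). The class I heavy chains rose beside their light chain. H2-K1 went from 281 to 693 CPM between Nuclear_WT and Nuclear_Het (log2 1.31 ± 0.02), H2-D1 from 91.6 to 189 (1.05 ± 0.03) and H2-Q4 from 23.8 to 74.2 (1.64 ± 0.05), although these near-identical genes may share reads. The chaperone Calr fell by 0.41 ± 0.02. In this list of 14 genes, 12 tested, 7 rose and 4 fell, beside 32.8% and 31.7% of all genes. Psme1 and Psme2, which form the PA28 activator of the immunoproteasome, rose by 0.37 ± 0.04 and 0.34 ± 0.04.

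In total RNA members were called in both directions in each comparison. In Het against WT 9 rose and 16 fell (30.9% and 30.3% of 15051 genes), with medians of -0.07 for the members and -0.01 for all genes. In Hom against WT 11 rose and 12 fell (30.6% and 31% of genes), with medians of -0.03 and 0. In Hom against Het, matched in Xist, 16 rose and 9 fell (32.9% and 34.1% of genes), with medians of 0.07 and 0.01. Scaled by library totals alone, 4 rose and 23 fell in Het against WT, and 26 rose and 8 fell in Hom against Het. Without Total_Hom replicate 2, 10 rose and 11 fell in Hom against WT, and 15 rose and 9 fell in Hom against Het. Myeloid markers summed to 396 to 403 CPM in Total_WT, 365 to 372 in Total_Het and 341 to 347 in Total_Hom. Csf1r alone ran from 118.6 to 121.4, from 103.8 to 109 and from 48.97 to 50.82 CPM in these groups. Of the 12 myeloid markers 3 rose, 1 fell and 8 were not called in Hom against WT. In Hom against Het 2 rose, 1 fell and 9 were not called, and in Het against WT 2 rose, 2 fell and 8 were not called. B and plasma cell markers summed to 101 to 103, 806 to 820 and 662 to 670 CPM in the same order. Mean sums in that order were 7.78, 17.3 and 41.6 CPM for neutrophil and 5.91, 7.02 and 3.68 CPM for T and NK markers. Pan-leukocyte markers summed to 57.1, 63.3 and 59.1 CPM on average. Podocyte markers summed to 467, 257 and 470 CPM, and proximal tubule markers to 32700, 53300 and 30600 CPM. The proximal tubule marker Kap alone ran from 5312 to 5467 CPM in Total_WT, from 22430 to 23410 in Total_Het and from 1772 to 1886 in Total_Hom. The part of these cell types in the members' changes was not tested.

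**Figure D5:**
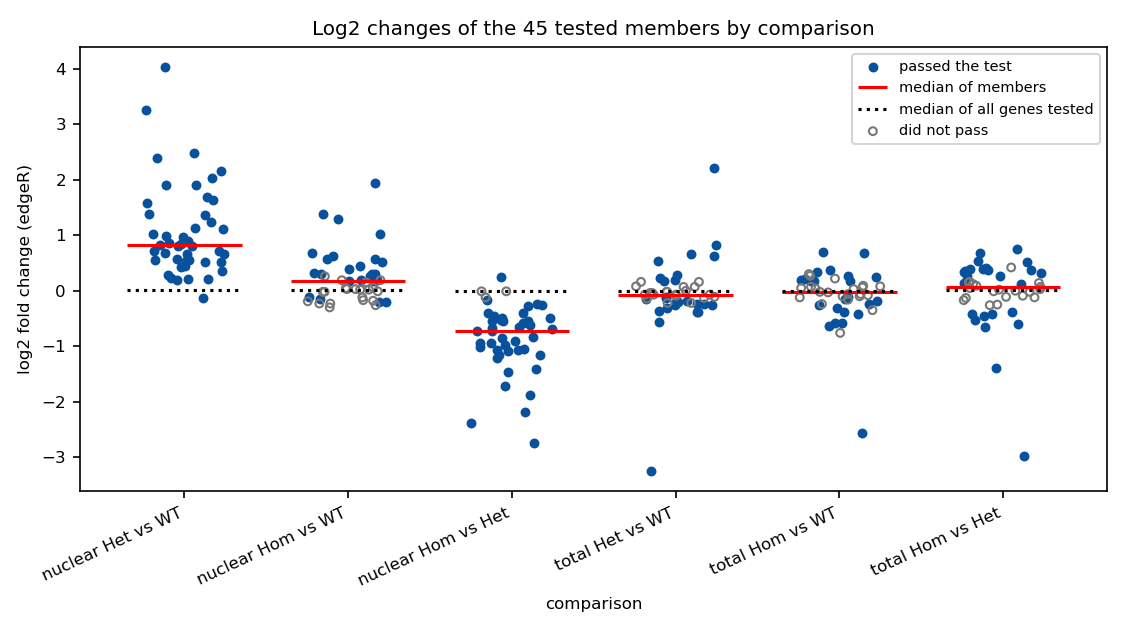
Log2 change of each of the 45 tested members (points; filled, passed the edgeR test; open, did not pass) in the 6 genotype comparisons, with the median of the members (red) and of all genes tested (dotted). The red line lies at 0.83 in nuclear Het against WT, at -0.72 in nuclear Hom against Het, and at -0.07, -0.03 and 0.07 in total Het against WT, Hom against WT and Hom against Het.

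Single members of total RNA differed widely. Gbp3 measured 99.1, 103 and 98.7 CPM in Total_WT, 10.9, 10.4 and 10.3 in Total_Het, and 17.2, 17 and 16.4 in Total_Hom. The 3 groups did not overlap, and Gbp3 fell by 3.24 ± 0.06 on the log2 scale in Het and by 2.56 ± 0.05 in Hom against WT (edgeR adjusted p = 1.36e-96 and 8.6e-91). It was 1.60-fold higher in Hom than in Het (log2 0.68 ± 0.08, adjusted p = 3.98e-14). Cxcl9 measured 0.504, 0.677 and 0.292 CPM in Total_WT, 2.67, 2.03 and 2.12 in Total_Het, and 0.203, 0.344 and 0.303 in Total_Hom. Only the Total_Het libraries stood apart, 4.63-fold above WT (log2 2.21 ± 0.30, adjusted p = 1.01e-10) and 7.83-fold above Hom (Hom against Het log2 -2.97 ± 0.34). Cxcl10 measured 2.87, 3.59 and 2.53 CPM in Total_WT, 4.03, 4.63 and 4.3 in Total_Het, and 3.45, 3.54 and 3.79 in Total_Hom, with a rise in Het of 0.53 ± 0.16 that was not called with library totals or with the deposited column of Total_WT replicate 1.

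Gbp6, Iigp1 and Oas1a were the other members with a rise in Total_Het among the 5 largest changes. Gbp6 measured 3.33, 3.59 and 3.6 CPM in Total_WT, 6.02, 7.36 and 5.11 in Total_Het, and 2.58, 2.06 and 2.33 in Total_Hom. It rose by log2 0.82 ± 0.15 in Het against WT and fell by 0.59 ± 0.17 in Hom against WT and by 1.40 ± 0.16 in Hom against Het (edgeR adjusted p = 3.44e-07, 0.00175 and 1.32e-14). Iigp1 measured 7.56, 7.29 and 6.87 CPM in Total_WT, 11.2, 10.5 and 12.5 in Total_Het, and 6.95, 8.5 and 7.08 in Total_Hom. Oas1a measured 2.57, 2.97 and 2.92 CPM in Total_WT, 4.48, 5.04 and 3.55 in Total_Het, and 3.35, 3.59 and 2.88 in Total_Hom. Iigp1 rose by 0.66 ± 0.10 and Oas1a by 0.63 ± 0.16 in Het against WT, and the Het and Hom libraries of Oas1a overlapped.

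In total RNA of Hom some members of different roles rose and others fell. Irf7 measured 12.4, 11.1 and 11.5 CPM in Total_WT, 13.6, 12.6 and 12.8 in Total_Het, and 18.2, 18 and 20.3 in Total_Hom, and Ifit1 measured 6.5, 6.45 and 6.77 CPM in Total_WT, 7.21, 7.3 and 7.54 in Total_Het, and 10.2, 10 and 11.3 in Total_Hom. Both were highest in Total_Hom without overlap and rose against WT by log2 0.69 ± 0.08 and 0.68 ± 0.10 (edgeR adjusted p = 1.04e-13 and 4.89e-09). Ifit2 measured 36, 37.1 and 36.4 CPM in Total_WT, 24.5, 22.4 and 26.8 in Total_Het, and 39.9, 41.3 and 42.2 in Total_Hom, a rise of 0.75 ± 0.06 in Hom against Het. Oasl2, a relative of the oligoadenylate synthetases, measured 10, 10.7 and 9.69 CPM in Total_WT, 8.51, 8.46 and 9.1 in Total_Het, and 6.34, 6.49 and 6.52 in Total_Hom. It fell by 0.64 ± 0.10 in Hom against WT (adjusted p = 2.95e-08). Ifih1 measured 21.5, 21.9 and 22.6 CPM in Total_WT, 22.8, 22.1 and 24.4 in Total_Het, and 14.1, 14.5 and 15.1 in Total_Hom, and Samd9l measured 98.8, 102 and 101 CPM in Total_WT, 98.8, 99.4 and 99.8 in Total_Het, and 75.7, 72.7 and 78.7 in Total_Hom. Both were lowest in Total_Hom without overlap, Ifih1 by 0.66 ± 0.07 and Samd9l by 0.39 ± 0.03 on the log2 scale below Het.

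Of the members with the highest levels in their roles, those that follow had smaller differences in total RNA than Gbp3. B2m measured 417, 417 and 413 CPM in Total_WT, 384, 374 and 379 in Total_Het, and 371, 364 and 379.7 in Total_Hom, and fell by 0.13 ± 0.02 in Het and 0.15 ± 0.02 in Hom on the log2 scale against WT. Tapbp measured 127, 122 and 130.3 CPM in Total_WT, 114, 117 and 118 in Total_Het, and 126, 130.4 and 128 in Total_Hom. Psmb8 measured 23, 20.9 and 22.2 CPM in Total_WT, 21.2, 21.3 and 20.4 in Total_Het, and 24.6, 24.6 and 25.6 in Total_Hom. It rose by 0.18 ± 0.06 in Hom against WT and 0.26 ± 0.07 in Hom against Het, and was not called in Het against WT. Psmb10 measured 23.4, 21.7 and 22.4 CPM in Total_WT, 18.7, 17.5 and 20.4 in Total_Het, and 23.8, 21.6 and 25.1 in Total_Hom, with a fall of 0.25 ± 0.07 in Het against WT, and Psmb9 rose by 0.24 ± 0.09 in Hom against WT. The Psmb9 call was lost with DESeq2, with library totals, and without Total_WT replicate 1 or 3, and the Psmb8 call in Hom against WT with library totals and without Total_WT replicate 2. Irf1 measured 28.7, 32 and 30.4 CPM in Total_WT, 27.2, 26.5 and 25.2 in Total_Het, and 27.1, 29.6 and 26.8 in Total_Hom. Stat2 measured 25, 26.7 and 24.5 CPM in Total_WT, 22.8, 22.2 and 23.8 in Total_Het, and 25.3, 23.1 and 23.6 in Total_Hom. The range over all 9 libraries of either factor stayed within that of its nuclear values. Ddx58 measured 34.2, 34.7 and 36.8 CPM in Total_WT, 29.9, 30.6 and 29.4 in Total_Het, and 33.9, 33.1 and 31 in Total_Hom, and Irgm1 measured 34.6, 36.4 and 37.5 CPM in Total_WT, 42.7, 44.4 and 39.8 in Total_Het, and 43, 41.8 and 40.6 in Total_Hom. Ddx58 was lower in Het than in WT by 0.23 ± 0.05, and Irgm1 was higher than WT in both mutant genotypes, by 0.23 ± 0.05 in Het and 0.22 ± 0.05 in Hom. The deposited column of Total_WT replicate 1 removed both calls of Irgm1, and library totals removed the one in Het. Ifit3 measured 38.6, 40.6 and 40.7 CPM in Total_WT, 30.5, 33 and 27.5 in Total_Het, and 40.2, 39.9 and 37 in Total_Hom, with a fall of 0.39 ± 0.05 in Het against WT. Tap1, higher in Total_Het by 0.17 ± 0.08 under TMM scaling, had the opposite sign when libraries were scaled by their totals. Gbp7, lower in Total_Hom than in Total_WT by 0.11 ± 0.05, turned positive when the deposited column of Total_WT replicate 1 was used.

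Nuclear RNA was compared with total RNA within each genotype. By the labels the 2 fractions of a genotype differed in Xist, so they were not RNA of the same animals. The sign of the members' difference turned with genotype. In WT 1 member was higher in nuclear RNA and 37 were lower (30.9% and 30.8% of 15410 genes), with a median of -0.48. In Het 37 were higher and 2 lower (33.4% and 30.2% of genes), with a median of 0.51, and 36 and 2 without Nuclear_Het replicate 3. In Hom 5 were higher and 34 lower (30.5% and 29.8% of genes), with a median of -0.36, and 5 and 31 without Total_Hom replicate 2. Gbp3 had the largest difference in each genotype, -3.05 ± 0.06 in WT, 1.88 ± 0.07 in Het and 1.45 ± 0.06 in Hom on the log2 scale (edgeR adjusted p = 2.16e-95, 5.43e-57 and 6.53e-53). Isg20, an RNA exonuclease, was lower in nuclear RNA in all 3 genotypes, with log2 differences of -1.39 ± 0.15, -0.95 ± 0.14 and -1.22 ± 0.16. It measured 2.23, 2.78 and 2.36 CPM in Nuclear_WT, 3.41, 3.65 and 3.37 in Nuclear_Het, and 1.81, 2.32 and 2.14 in Nuclear_Hom. In total RNA it measured 6.15, 6.56 and 6.53 CPM in Total_WT, 7.66, 6.26 and 6.17 in Total_Het, and 4.82, 5.06 and 4.7 in Total_Hom. Nlrc5 was lower in nuclear RNA of WT (-1.76 ± 0.23) and higher in nuclear RNA of Het (1.58 ± 0.15). Its total RNA values were 2.37, 2.71 and 3.12 CPM in Total_WT, 2.78, 2.72 and 2.18 in Total_Het, and 3.29, 2.21 and 2.33 in Total_Hom. Zbp1 was higher in nuclear RNA of Het (1.39 ± 0.24), with total RNA values of 1.01, 1.35 and 1.61 CPM in Total_WT, 1.42, 0.985 and 0.998 in Total_Het, and 1.22, 0.786 and 1.11 in Total_Hom. Irf7 was lower in nuclear RNA of Hom (-1.08 ± 0.08), and its nuclear values were 9.52, 9.82 and 10.7 CPM in Nuclear_WT, 18.5, 16.8 and 16.7 in Nuclear_Het, and 8.2, 9.4 and 9.03 in Nuclear_Hom. Rsad2 was the other member lower in nuclear RNA of Het (-0.35 ± 0.06). The pan-leukocyte sum was 1.96 times higher in Total_WT than in Nuclear_WT, while Nuclear_Het (122 to 127 CPM) lay above Total_Het (59 to 66.7 CPM) and Nuclear_Hom (37.7 to 39.8) below Total_Hom (57.2 to 61.3), in the same directions as the members. Myeloid and dendritic sums went in these directions too, although in Hom 2 of the 5 dendritic markers were called higher in nuclear RNA and 1 lower. T and NK sums did so in WT and Het. In Hom they overlapped, at 2.93 to 4.35 CPM in nuclear and 2.9 to 4.16 in total RNA. In Het, B and plasma markers summed to 435 CPM in nuclear and 815 in total RNA, and neutrophil markers to 13.6 and 17.3. Podocyte sums also moved as the members did. Their nuclear and total values were 325 and 467 CPM in WT, 430 and 257 in Het, and 357 and 470 in Hom. Endothelial sums did not do so in Het, nor distal nephron sums in Hom, and proximal tubule sums went the opposite way in each genotype. The part of these cell types in these differences was not tested.

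Whether the genotype difference itself differed between the fractions was tested as an interaction over all 18 libraries, which compares nuclear-to-total ratios. Between Hom and Het the ratio was lower in Hom for 40 members and higher for 2, Samd9l and Ifih1 (31.9% and 31.7% of genes), with a median of -0.76. Ratios at least 2-fold lower were called for 14 members and 10.9% of genes. The 3 largest were Zbp1 (log2 -2.25 ± 0.40), Nlrc5 (-1.88 ± 0.24) and Iigp1 (-1.59 ± 0.16), with edgeR adjusted p = 3.64e-07, 9.13e-12 and 3.05e-17. Between Hom and WT the ratio was higher in Hom for 20 members and lower for 4 (28.4% and 27.7% of genes), with a median of 0.17. Gbp3 led with 4.51 ± 0.08, followed by Cxcl9 with 2.06 ± 0.65 and Gbp6 with 1.61 ± 0.24 (adjusted p = 2.06e-96, 0.00417 and 3.99e-09). Irf7, Isg15, Irgm1 and Parp14 had lower ratios in Hom than in WT, and library totals removed the calls of Isg15 and Parp14. The Parp14 call was also lost with DESeq2, with a floor of 5 CPM on the mean, with the deposited column of Total_WT replicate 1, and without replicate 1 of Nuclear_WT, Total_WT or Total_Hom or Nuclear_Hom replicate 2. Without Total_Hom replicate 2 the counts were 17 higher and 5 lower for Hom against WT, and 2 and 40 for Hom against Het. Without Nuclear_Het replicate 3 they were again 2 and 40 for Hom against Het.

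Members with and without the promoter letters were set side by side in nuclear Het against WT. The median log2 change was 0.97 for the 15 tested members with ISRE letters and 0.64 for the 20 without. It was 0.92 for the 10 members with GAS letters, 0.68 for the 25 without, and 0.57 for the 15 with neither. In nuclear Hom against Het the medians were -0.66 with and -0.64 without ISRE letters, and -0.84 with and -0.59 without GAS letters. In nuclear Hom against WT they were 0.06 with and 0.18 without ISRE letters, and 0.18 with and 0.06 without GAS letters. The medians leave out the members that matched no promoter, among them Nlrc5, Gbp6, Iigp1 and Zbp1, which had the largest changes after Cxcl9 in nuclear Het against WT. Igtp and Irgm2, with the paired letters shown above, rose by log2 1.11 ± 0.08 and 1.03 ± 0.07 in Nuclear_Het, Psmb8 with GAS letters alone by 1.90, and Isg15 with 3 ISRE matches by 0.68. Cxcl9, with the largest change, had neither set of letters in its window.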

How the data were processed

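RNA-seq of nuclear and total RNA from 18 mouse libraries was used, 3 in each of 6 groups taken from sample names and genotype labels. Per the labels' protocols, TRIzol was used for RNA and the KAPA Stranded mRNA-Seq kit for libraries. The tools named per the submitters' processing notes are featureCounts, STAR 2.5.2b, CASAVA and DESeq2, with build mm9, and no order or settings are given. The annotation and strand setting are not given in the sources used here, so reads of overlapping genes on opposite strands cannot be told apart. The authors deposited 1 table of raw counts per gene, with a gene length column used only for levels per kilobase, and 0 columns of samples were left unused.

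From the 200140709 counts of the Total_WT replicate 1 column, each gene's 9 nuclear counts (181106189 in all) were taken away, leaving 19034520. No pair of libraries agreed within sampling noise. Each library then had between 17405493 and 23462056 counts, and 4177 genes had none in any library.

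Counts were fitted by the robust quasi-likelihood test of edgeR 4.0.16 (R 4.3.3) after TMM scaling and filterByExpr, with a Benjamini-Hochberg adjusted p under 0.05 over all genes tested. Genotypes were compared in a fit of the 9 nuclear or the 9 total libraries, and fractions and ratios in a fit of all 18. Log2 values carry SE. Common biological variation came to 3.05% for the nuclear fit, 3.9% for the total fit and 3.54% for the fit of all 18.

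The members and lists were chosen with earlier results of these data known. Values in every library were given for the 2 members of each role with the highest mean CPM and for members a comparison names. A genotype comparison names up to 5 called members with the largest change and a mean of at least 1 CPM, a fraction or ratio comparison up to 3, and each other list up to 4 genes with the smallest p. Members described beside these were chosen by role. A gene named by this rule in the list of ligands, receptors and signalling is not reported here. Alternatives were each library left out, the deposited column of Total_WT replicate 1, 1 fit of all 18 libraries, a replicate block, scaling by library totals or by RLE, a floor of 5 CPM on the mean or no floor, and DESeq2 1.42.0.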

Additional observations from a re-analysis of the deposited data

Results flagged for a closer look

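For 6 members the difference between genotypes was not the same in nuclear and total RNA, by the interaction test of edgeR over all 18 libraries. These are the 3 called members with the largest change in each of the 2 ratio comparisons. In each genotype Xist separated the nuclear from the total libraries, so these ratios cannot be told apart from sex. Behind the Hom against WT ratio, the groups within each fraction also differ in Xist. It was high in Hom in nuclear RNA and in WT in total RNA. Behind the Hom against Het ratio, the groups within each fraction match in Xist, but the nuclear and total groups do not.

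Gbp3, a guanylate-binding GTPase, had a nuclear-to-total ratio that was higher in Hom than in WT by 4.51 ± 0.08 on the log2 scale (adjusted p = 2.06e-96). It rose by 1.94 ± 0.06 in nuclear RNA and fell by 2.56 ± 0.05 in total RNA in that comparison, with no overlap between the groups in either fraction. For Cxcl9 the ratio was higher by 2.06 ± 0.65 (adjusted p = 0.00417), with group means of 0.249 and 0.598 CPM in Nuclear_WT and Nuclear_Hom and 0.491 and 0.283 CPM in Total_WT and Total_Hom. Gbp6 had a ratio higher by 1.61 ± 0.24 (adjusted p = 3.99e-09), with a rise of 1.02 ± 0.17 in nuclear RNA and a fall of 0.59 ± 0.17 in total RNA.

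Between Hom and Het, Zbp1 had a ratio lower in Hom by -2.25 ± 0.40 (adjusted p = 3.64e-07), Nlrc5 by -1.88 ± 0.24 (adjusted p = 9.13e-12) and Iigp1 by -1.59 ± 0.16 (adjusted p = 3.05e-17). In nuclear RNA these 3 fell in Hom against Het by 2.39 ± 0.26, 1.87 ± 0.15 and 2.19 ± 0.11. In total RNA Iigp1 fell by 0.60 ± 0.10, and Zbp1 and Nlrc5 did not pass the test.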

How the results depend on the processing

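Of 448 alternative values of the member counts, 431 stayed within 1.5 times the count reported, and of 846 for the 45 changes that the naming rule picked (15 members), 843 kept direction and side of the threshold. Over all called members more calls were lost under at least 1 alternative: 3 of 45 in nuclear Het against WT, 3 of 42 in nuclear Hom against Het and 9 of 24 in nuclear Hom against WT, 12 of 25, 11 of 23 and 7 of 25 in total Het against WT, Hom against WT and Hom against Het, 5 of 38, 3 of 39 and 9 of 39 in nuclear against total RNA of WT, Het and Hom, and 9 of 24 and 3 of 42 in the ratios of Hom against WT and Hom against Het. The sign turned for Samd9l (nuclear Het against WT, and nuclear against total WT), Irgm1 (nuclear Hom against WT), Tap1 (total Het against WT) and Gbp7 (total Hom against WT). The remaining counts were small or came from total RNA. In nuclear Hom against WT the 4 falls became 1 with DESeq2, 0 with library totals, 1 under a floor of 5 CPM on the mean, and 1 to 4 when single libraries were left out (1 without Nuclear_WT replicate 2, 2 without Nuclear_WT replicate 3 or Nuclear_Hom replicate 3). Library totals alone gave 0 falls in nuclear Het against WT, 4 rises in total Het against WT, 26 rises in total Hom against Het, 0 members higher in nuclear RNA of WT, and 2 lower ratios in Hom against WT. The floor of 5 CPM gave 4 rises in total Het against WT, 1 member lower in nuclear RNA of Het, 3 higher in nuclear RNA of Hom and 2 lower ratios in Hom against WT. The deposited column of Total_WT replicate 1 gave 10 falls in total Het against WT and 1 member lower in nuclear RNA of Het, and Gbp3 in total Hom against Het then had log2 0.69 (adjusted p = 0.273). The cause of these changes was not tested.

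Leaving out single libraries gave 43 to 44 rises in nuclear Het against WT, 39 to 41 falls in nuclear Hom against Het and 18 to 20 rises in nuclear Hom against WT. Library totals moved the median of all genes to 0.2 in nuclear Het against WT, beside 1.01 for the members, to 0.14 beside 0.29 in nuclear Hom against WT, and to -0.19 beside -0.25 in total Het against WT. The share of calls that were higher over all genes then moved from 50.9% to 75.9%, from 48.8% to 73.9% and from 50.5% to 24.5%, and in nuclear Hom against Het from 49.6% to 33.5%. Member calls under that scaling were 44 higher and 0 lower, 25 and 0, 4 and 23, and 1 and 42. In total Hom against Het the share moved from 49.1% to 68.4%, in nuclear against total WT from 50.1% to 25.4% and Het from 52.5% to 77.3%, and in the ratios from 50.7% to 70.4% (Hom against WT) and from 49.8% to 29.1% (Hom against Het).

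With replicate number as a block, the counts were those reported, for example 44 rises in nuclear Het against WT and 41 falls in nuclear Hom against Het. Of 27 pairs of same-numbered libraries 1 had deviations that correlated above 0.1 (range -0.12 to 0.11). No pairing by number was seen, but with the spread of most groups near sampling noise this check could miss one. Depth limits the scarce members: Cxcl9, Zbp1, Nlrc5 and Mx2 had 452 to 1089 counts in 18 libraries.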
